A study of Mus musculus with 8 samples.

Results

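A set of 10 genes that mark white adipocytes was followed through RNA of the pregnant mouse mammary gland. The members were the rows of the gene expression table named Adipoq, Cfd, Lep, Retn, Plin1, Plin4, Cidec, Fabp4, Car3 and Pparg, 10 of the 55933 genes listed, and all 10 were found. The libraries came from mammary glands of 8 female mice on a C57BL/6 background at pregnancy day 14.5, with 1 library per mouse. Of these, 4 were controls, labelled WT and described as littermates, and 4 were conditional knockouts (cKO). The cKO mice carried K14-rtTA, teto-Cre and Bmpr1a fl/fl, so that doxycycline in the drinking water switched on Cre in cells with an active K14 promoter, which in this gland are the myoepithelial cells, and deleted part of the BMP receptor gene there. The transgenes or floxed alleles that the control mice carried, and whether those mice received doxycycline, are not given in the sources used here. Enzymatic digestion of the tissue was used to free the epithelium from fat before total RNA was taken, and red cells were lysed.

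White adipocytes store triglyceride in a single large lipid droplet coated by perilipins and CIDEC, and they secrete hormones such as adiponectin, leptin and, in mice, resistin, together with the complement protease factor D. PPARγ drives the adipocyte programme, and several of the genes here are its classical targets. In the mammary gland the epithelium lies in a pad of such adipocytes, and during pregnancy the alveolar cells switch on milk protein genes and build lipid droplets of their own.

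Values are FPKM, fragments scaled to gene length and to library size by median-of-ratios factors. Comparisons of level between genes depend on the gene length used, which for Fabp4 is its whole span. The libraries held between 16123108 and 19896988 reads on genes, and the 2 groups overlapped in depth. Differences between cKO and control were tested with limma on log2(FPKM + 1) in the 15143 genes with a mean of at least 0.5 FPKM, and a fold change on this scale understates the change of a gene below about 1 FPKM. The median log2 fold change of all genes tested was 0.00. Each gene was also given a two-sided exact permutation test over the 8 libraries, for which 4 against 4 can give no p below 0.0286. Bmpr1a, the targeted gene, measured 10.6, 11.7, 8.74 and 9.52 FPKM in control replicates 1 to 4 and 12.0, 12.0, 10.2 and 10.4 FPKM in cKO replicates 1 to 4. Its total was not lower in cKO (log2 fold change 0.13, SE 0.10, limma adjusted p = 0.560), but a gene total holds all exons and all cell types, so it does not check a deletion of part of the gene in myoepithelial cells. The group names therefore rest on the labels.

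The mean FPKM of 9 of the 10 members was higher in cKO, and that of Pparg was lower. The filter on low values was passed by 7 members and not by 3 (Plin1, Lep and Retn). At an unadjusted limma p under 0.05, 4 members were higher in cKO (Cfd, Car3, Cidec and Adipoq), where 8.85% of all genes tested were, and 0 were lower, also by limma-voom on reads, where 7.53% of all genes tested were lower by limma. After Benjamini-Hochberg adjustment over all genes tested, 1 member was higher (Cidec), where 0.588% of all genes tested were. Cidec and Adipoq averaged under 0.5 FPKM in the controls and passed the filter only through cKO, so these counts are read as descriptions, and with no filter the adjusted call of Cidec was lost. Every cKO library lay above every control library for 4 members (Cfd, Car3, Cidec and Lep, the last of them below the filter), and for 6.1% of all genes tested. Lep had at most 4 reads in a control library and at least 5 reads in a cKO library. In bulk RNA a difference in the number of cells of one type cannot be told apart from a difference in RNA per cell.

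**Figure D1:**
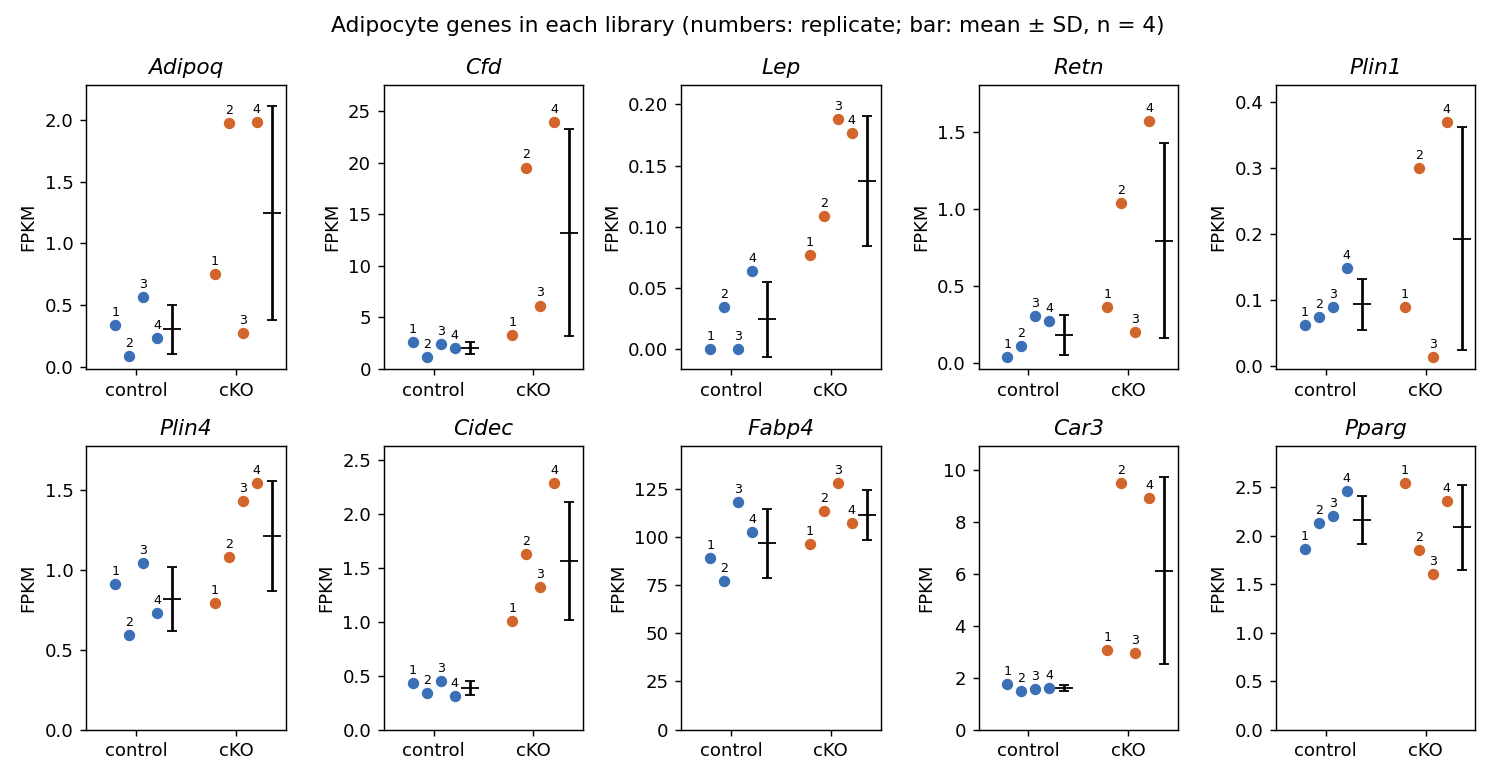
FPKM of each of the 10 members in the 4 control libraries (blue) and the 4 cKO libraries (orange), with the replicate number beside each point and the mean ± SD as a black bar (n = 4). Each panel has its own linear scale. Cfd, Car3, Cidec and Lep show no overlap between groups, and cKO replicates 2 and 4 are the 2 highest libraries for Adipoq, Cfd, Retn, Plin1, Cidec and Car3. Lep has 0 to 4 reads in the controls and 5 to 11 reads in cKO.

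Among the members, 6 (Adipoq, Cfd, Retn, Plin1, Cidec and Car3) had cKO replicates 2 and 4 as their 2 highest libraries, and 4 of these 6 were among the 7 members tested. The same was so for 3.99% of all genes tested. This grouping was noticed in the data and carries no test. RefSeq promoter windows of GRCm38.p6, each 250 bases ending at the base before the start site, were available for 8 of the 10 members, at 11 starts. They are shown for 4 of these 6 genes, since these windows lie outside the annotated exons. Capitals mark the motifs searched on both strands, which were CCAAT (reverse ATTGG), the C/EBP-type sequence TTGCNNAA (reverse TTNNGCAA), the nuclear receptor half-site AGGTCA (reverse TGACCT) and TATAAA (reverse TTTATA). For Cidec the window of the outermost of its 2 listed starts is printed.
Adipoq, chr16:23146286-23146535, plus strand: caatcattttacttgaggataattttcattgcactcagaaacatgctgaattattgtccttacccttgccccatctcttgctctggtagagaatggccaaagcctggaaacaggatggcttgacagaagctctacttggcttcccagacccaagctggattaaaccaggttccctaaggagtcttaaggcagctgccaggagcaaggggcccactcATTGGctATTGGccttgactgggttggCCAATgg
Cfd, chr10:79890603-79890852, plus strand: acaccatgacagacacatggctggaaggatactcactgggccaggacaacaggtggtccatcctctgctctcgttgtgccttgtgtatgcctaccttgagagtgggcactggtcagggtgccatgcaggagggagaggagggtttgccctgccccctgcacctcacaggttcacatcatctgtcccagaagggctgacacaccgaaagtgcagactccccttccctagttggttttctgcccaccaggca
Retn, chr8:3655520-3655769, plus strand: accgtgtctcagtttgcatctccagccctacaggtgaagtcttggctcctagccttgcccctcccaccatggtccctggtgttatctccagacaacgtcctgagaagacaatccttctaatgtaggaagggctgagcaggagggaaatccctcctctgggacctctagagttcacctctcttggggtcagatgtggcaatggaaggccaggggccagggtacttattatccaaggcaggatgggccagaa
Cidec, chr6:113435761-113436010, minus strand: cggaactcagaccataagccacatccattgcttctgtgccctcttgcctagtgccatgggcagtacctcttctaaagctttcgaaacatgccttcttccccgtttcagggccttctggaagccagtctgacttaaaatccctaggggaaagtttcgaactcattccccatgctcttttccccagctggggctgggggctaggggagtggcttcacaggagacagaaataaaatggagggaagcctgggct
Adipoq held 3 matches to CCAAT close to its start, and the other 3 windows held no match to any of the 4 motifs. Of 32851 promoter windows of the same length, 33.8% held CCAAT, 9.56% the C/EBP-type sequence, 14% the half-site and 12.4% TATAAA. The inner start of Cidec and the start of Plin1 held 1 and 2 matches to the C/EBP-type sequence. A match or its absence in these windows says nothing of which factors bind.

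Of the secreted products, factor D is taken first. Cfd (ENSMUSG00000061780, plus strand of chromosome 10, 79890853 to 79892655 in GRCm38) encodes this protease, which starts the alternative complement pathway and is abundant in mouse fat. It measured 2.57, 1.19, 2.40 and 2.02 FPKM in control replicates 1 to 4 and 3.26, 19.5, 6.15 and 23.9 FPKM in cKO replicates 1 to 4. All 4 cKO libraries lay above all controls, but replicates 2 and 4 stood far above replicates 1 and 3. The log2 fold change was 1.90 (SE 0.52, limma p = 0.00531, adjusted p = 0.128, exact permutation p = 0.0286). Without cKO replicates 2 and 4, a choice made after their values were seen, it was 0.88 (limma adjusted p = 0.386), past the unadjusted threshold. In that reduced fit 0 genes of the whole table passed adjustment and 1447 passed before it.

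Adipoq (ENSMUSG00000022878, plus strand of chromosome 16, 23146536 to 23158028) encodes adiponectin, the most adipocyte-restricted of the hormones. Its FPKM was 0.334, 0.0836, 0.562 and 0.231 in the controls and 0.750, 1.98, 0.274 and 1.99 in cKO, from 2 to 51 reads per library. Replicates 2 and 4 were high, replicate 1 lay just above the controls, and replicate 3 lay within their range. The log2 fold change was 0.71 (SE 0.27, limma p = 0.0295, adjusted p = 0.245, exact permutation p = 0.0857), and without cKO replicates 2 and 4 it was 0.21 (limma adjusted p = 0.796), not past the unadjusted threshold. Adipoq averaged 0.303 FPKM in the controls, so it was tested only through cKO (limma adjusted p = 0.435 with no filter). The filter was not redone for the reduced fit. Leaving out cKO replicate 2 or 4, or control replicate 2 or 4, each took the unadjusted p above 0.05, as did a replicate block, with log2 fold changes of 0.54, 0.54, 0.62 and 0.69 for the 4 libraries.

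Retn, the gene of resistin, had 0.0365, 0.110, 0.302 and 0.270 FPKM in the controls and 0.361, 1.04, 0.199 and 1.57 FPKM in cKO, from 1 to 46 reads. It followed the order of Adipoq among the cKO libraries, with replicates 2 and 4 high and replicate 3 inside the control range. Its mean lay below the filter and the exact permutation p was 0.114. Lep, the gene of the satiety hormone leptin, was close to absent. Control replicates 1 and 3 had 0 reads, which allows up to 0.0516 and 0.0534 FPKM (3 reads each, counting error only), and the other controls had 0.0344 and 0.0635 FPKM from 2 and 4 reads. The cKO libraries had 0.0772, 0.108, 0.188 and 0.177 FPKM from 5, 6, 10 and 11 reads. The groups did not overlap (exact permutation p = 0.0286), and the highest cKO library was replicate 3, the one with the least Adipoq.

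The lipid droplet proteins divided. Cidec (ENSMUSG00000030278, minus strand of chromosome 6, 113424634 to 113435760) encodes the protein that fuses small droplets into large ones. It measured 0.435, 0.342, 0.450 and 0.316 FPKM in the controls and 1.00, 1.63, 1.32 and 2.29 FPKM in cKO. All 4 cKO libraries, replicates 1 and 3 included, were more than 2 times the highest control. The log2 fold change was 0.86 (SE 0.14), the only one among the members with a limma adjusted p under 0.05 (0.0377, exact permutation p = 0.0286). Cidec averaged 0.386 FPKM in the controls, so it was tested only through cKO. The adjusted call was lost with no filter on low values (limma adjusted p = 0.101) and when any 1 library other than cKO replicate 1 was left out. Without cKO replicates 2 and 4 the log2 fold change was 0.64 (limma adjusted p = 0.203), past the unadjusted threshold.

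Plin1 encodes perilipin 1, the droplet coat protein that gates lipolysis in adipocytes. Its values were 0.0621, 0.0745, 0.0899 and 0.149 FPKM in the controls and 0.0891, 0.300, 0.0135 and 0.371 FPKM in cKO, from 1 to 32 reads. Replicates 2 and 4 were again the highest, and cKO replicate 3 was the lowest library of all 8 (exact permutation p = 0.371). Plin4, a perilipin of small droplets, had 0.909, 0.591, 1.04 and 0.730 FPKM in the controls and 0.791, 1.08, 1.43 and 1.54 FPKM in cKO. The groups overlapped (log2 fold change 0.27, SE 0.13, limma adjusted p = 0.345, exact permutation p = 0.114). An exon of Plin4 overlaps one of Hdgfl2 on the opposite strand, which held 694 to 1047 reads, and without strand information their reads cannot be told apart.

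Car3 (ENSMUSG00000027559, chromosome 3) encodes a cytosolic carbonic anhydrase that is abundant in white fat and in slow skeletal muscle. It had 1.77, 1.47, 1.56 and 1.60 FPKM in the controls and 3.06, 9.50, 2.95 and 8.93 FPKM in cKO. No library overlapped between groups, and replicates 2 and 4 were about 3 times replicates 1 and 3. The log2 fold change was 1.30 (SE 0.33, limma p = 0.00328, adjusted p = 0.104, exact permutation p = 0.0286), and without cKO replicates 2 and 4 it was 0.62 (limma p = 0.000309, adjusted p = 0.182). Of 10 skeletal muscle genes none had cKO replicates 2 and 4 highest and 8 were below the filter. Acta1, skeletal muscle actin, was higher in cKO at an unadjusted limma p (log2 fold change 0.48, SE 0.15, adjusted p = 0.157). It averaged 0.280 FPKM in the controls and 0.801 FPKM in cKO, so it was tested only through cKO, and the groups overlapped (exact permutation p = 0.0571). The summed level of the muscle list was 1.24 to 1.92 FPKM in the controls and 1.16 to 2.44 FPKM in cKO, and its part in Car3 was not tested.

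Fabp4, the fatty acid carrier aP2, was the most abundant member. It had 89.0, 77.0, 118 and 102 FPKM in the controls and 96.5, 114, 128 and 107 FPKM in cKO. These ranges overlapped (log2 fold change 0.21, SE 0.14, limma adjusted p = 0.491, exact permutation p = 0.229). The table divides Fabp4 by 4489 bases, its whole span with introns, so its level is understated relative to the other members. Even so it was the 432nd gene of the table by mean FPKM, against 13727th for Adipoq. Endothelial cells and macrophages also express Fabp4.

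Pparg, the nuclear receptor itself, had 1.86, 2.13, 2.20 and 2.45 FPKM in the controls and 2.54, 1.85, 1.60 and 2.35 FPKM in cKO. The groups overlapped (log2 fold change −0.04, SE 0.11, limma adjusted p = 0.891, exact permutation p = 0.771), and cKO replicates 2 and 4 did not stand apart. Its value covers all its isoforms, including the one particular to fat. The ratio of Fabp4 to Adipoq FPKM was 266, 921, 211 and 442 in the controls and 129, 57.5, 468 and 54.0 in cKO. It rests on few Adipoq reads, with 2 in control replicate 2 (921) and 6 in cKO replicate 3 (468). The ratio of Cfd to Adipoq ran from 4.26 to 14.2 in the controls and from 4.34 to 22.5 in cKO. That of Car3 to Adipoq ran from 2.78 to 17.6 and from 4.07 to 10.8. Whether the spread of these ratios exceeds counting error was not tested.

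**Figure D2:**
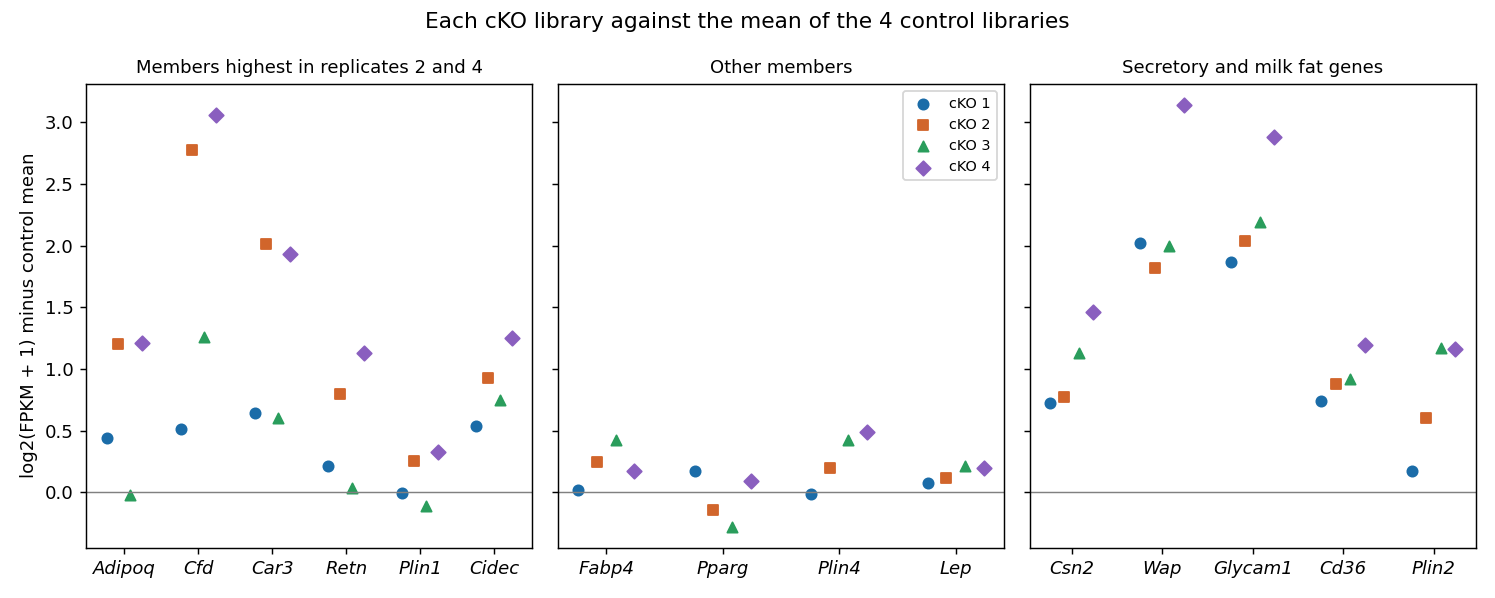
Difference of each cKO library (marker shapes for replicates 1 to 4) from the mean of the 4 control libraries on the log2(FPKM + 1) scale, for 6 members highest in replicates 2 and 4 (left), the other 4 members (middle) and 5 secretory or milk fat genes (right). Adipoq stands at 1.98 and 1.99 FPKM in replicates 2 and 4 against 0.274 FPKM in replicate 3, whereas Csn2 is well above the controls in all 4 cKO libraries.

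Covariation over the 8 libraries was then measured against Adipoq, for the other 9 members and for the mean of 7 cell type lists, a family of 16 relations with Benjamini-Hochberg adjustment. The permutations ran over all 8 libraries without regard to group. A group difference shared by both sides of a relation can therefore give a small p by itself. Retn followed Adipoq most closely with r = 0.94 (exact permutation p = 0.00250, adjusted p = 0.0361, rho = 0.83). Car3 also had r = 0.94 (exact permutation p = 0.00451, adjusted p = 0.0361, rho = 0.81). For Cfd r was 0.91 (exact permutation p = 0.00888, adjusted p = 0.0374, rho = 0.83). The products are a hormone, a carbonic anhydrase and a complement protease. Cidec had r = 0.83 (exact permutation p = 0.00935, adjusted p = 0.0374, rho = 0.83). Plin1 had r = 0.88 (exact permutation p = 0.0164, adjusted p = 0.0525, rho = 0.62). Over all genes tested, 0.251% reached an r of 0.9 with Adipoq and 15.1% reached 0.5. No rank correlation passed the adjustment, and the smallest adjusted permutation p of rho was 0.0820.

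These relations rested on cKO replicates 2 and 4, the 2 libraries farthest from the Adipoq median. Over the other 6 libraries r was 0.65 for Retn, 0.49 for Car3, 0.35 for Cfd, 0.39 for Cidec and 0.08 for Plin1. Within the deviations from the 2 group means r was 0.90 for Retn, 0.91 for Car3, 0.84 for Cfd, 0.73 for Cidec and 0.89 for Plin1. Those deviations still hold cKO replicates 2 and 4. With 4 libraries a group, r within one group was not computed. The remaining members were looser: Plin4 had r = 0.57 (exact permutation p = 0.134, rho = 0.69), Lep 0.46 (exact permutation p = 0.241, rho = 0.35), Fabp4 0.37 (exact permutation p = 0.358, rho = 0.33) and Pparg 0.10 (exact permutation p = 0.807, rho = 0.14).

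The mean of the 11 secretory luminal genes, the milk proteins and their companions, had r = 0.76 with Adipoq (exact permutation p = 0.0263, adjusted p = 0.0700, rho = 0.69), 0.59 without cKO replicates 2 and 4 and 0.50 in the deviations from group means. The other 6 lists had r between −0.35 (hormone-sensing luminal genes) and 0.25 (myoepithelial genes) and rho between −0.48 and 0.19, and the smallest adjusted permutation p of their r was 0.627. In the deviations from group means, however, hormone-sensing luminal genes had r = 0.61 and macrophage genes r = 0.57, both above the secretory genes, and the other 4 lists ran from −0.43 to 0.34. None of the 11 secretory genes had cKO replicates 2 and 4 as its 2 highest libraries. Csn2, the gene of β-casein, had 1455, 1524, 1775 and 1856 FPKM in the controls and 2711, 2802, 3601 and 4523 FPKM in cKO. Replicate 3, the cKO library with the least Adipoq, was the second highest for Csn2. Whether adipocytes or secretory cells gave the members' RNA was not tested.

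**Figure D3:**
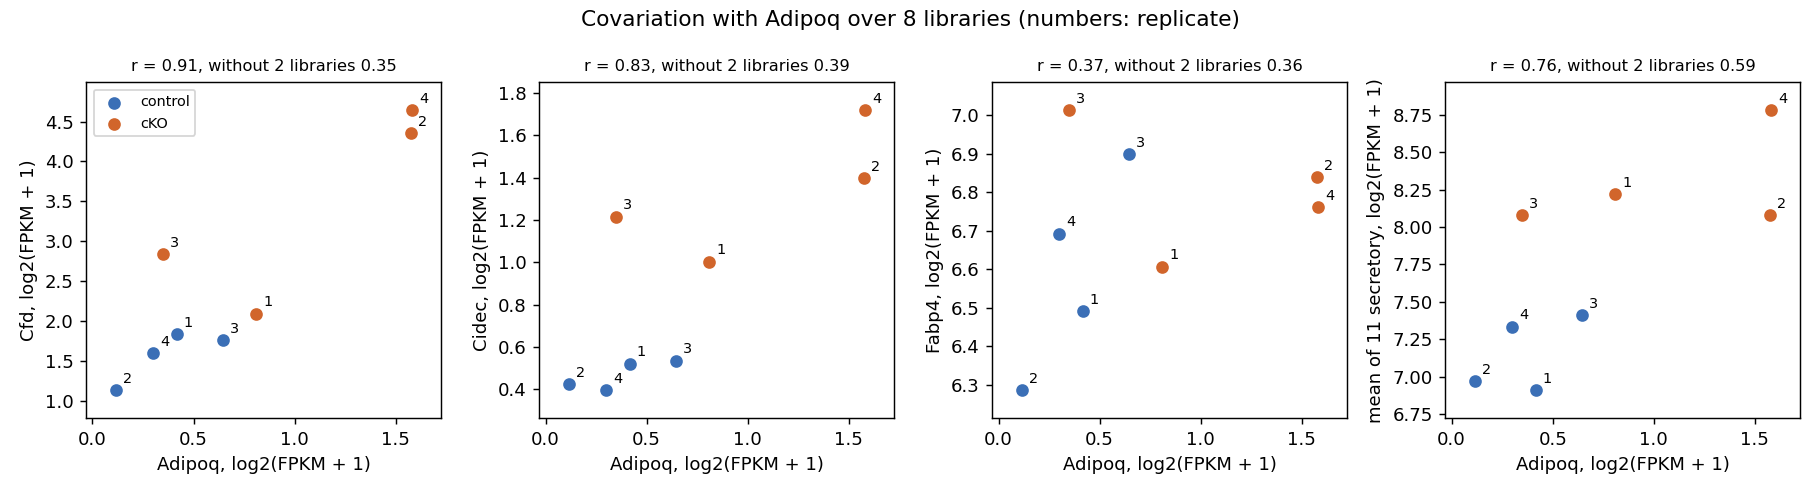
Cfd, Cidec, Fabp4 and the mean of 11 secretory luminal genes against Adipoq, all in log2(FPKM + 1), for 4 control (blue) and 4 cKO (orange) libraries numbered by replicate. Each heading gives Pearson r over 8 libraries and over the 6 left without cKO replicates 2 and 4, which is 0.91 and 0.35 for Cfd and 0.76 and 0.59 for the secretory genes.

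The adipocyte programme beyond the 10 members did not move as one. Of 27 other adipocyte genes 16 were tested, 6 were higher in cKO and 2 lower at an unadjusted p under 0.05, and the median log2 fold change was 0.02. Cd36, the fatty acid transporter, rose with 72.2, 72.6, 81.0 and 76.9 FPKM in the controls and 127, 140, 144 and 174 FPKM in cKO (log2 fold change 0.93, SE 0.10, limma adjusted p = 0.0204). Orm1, an acute phase plasma protein, rose by 0.86 (SE 0.16, limma adjusted p = 0.0465). Its control mean was 0.477 FPKM, so it passed the filter only through cKO, and its adjusted p was 0.123 with no filter and 0.0682 with a replicate block. Thrsp, Gpd1, Lgals12 and Lpl were the other 4 higher genes, and Sncg and Agt the 2 lower. Cd36 and Thrsp are also expressed by milk-producing cells.

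None of the 16 tested adipocyte genes had cKO replicates 2 and 4 highest, but 4 of the 27 did, all below the filter (Adrb3, Cyp2e1, Pck1 and Tshr, singled out after their values were seen). For Adrb3 and Tshr this rested on 3 or 4 reads in each of replicates 2 and 4 against 0 or 1 read in the other libraries. Cyp2e1, a cytochrome P450, had 0.187, 0.0268, 0.0830 and 0.123 FPKM in the controls and 0.192, 1.21, 0.379 and 0.724 FPKM in cKO. Adig, another adipocyte gene, ranged from 6.63 to 10.9 FPKM in the controls and from 7.23 to 10.4 FPKM in cKO.

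Genes that act above and below PPARγ gave a divided picture. Of 13 adipogenic regulators 7 were tested, and 1 was higher, Rxra, the partner of PPARγ (log2 fold change 0.18, limma adjusted p = 0.212). The list's median was −0.01, its most abundant gene, Cebpd, had a log2 fold change of −0.04, and Dlk1, a marker of preadipocytes, was listed at 0 in all 8 libraries. Of 10 target genes shared by the PPAR family 8 were tested and 6 were higher at an unadjusted p, 0 after limma adjustment (1 by limma-voom), with a median of 0.80. Ehhadh, of peroxisomal β-oxidation, had a log2 fold change of 0.87 (limma adjusted p = 0.0778). Angptl4, an inhibitor of lipoprotein lipase and the most abundant of the list, had 0.18 (limma adjusted p = 0.683).

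Of 10 other lipid droplet genes 8 were tested and 3 were higher, with a median of 0.41. Abhd5, the coactivator of triglyceride lipase, rose by 0.43 (SE 0.08, limma adjusted p = 0.0461, 0.0554 with a replicate block). Plin2, the coat protein of milk fat droplets, had 143, 126, 236 and 184 FPKM in the controls and 189, 255, 377 and 376 FPKM in cKO. Its replicates 3 and 4 were the highest (log2 fold change 0.78, SE 0.26, limma adjusted p = 0.192), so Plin2 did not share the order of Plin1. Of 8 brown fat genes 3 were tested, with Cidea higher (0.93, limma adjusted p = 0.136), Dio2 lower (−0.22, limma adjusted p = 0.258) and Cox7a1 at −0.08. Dio2 lost its unadjusted call with a replicate block. Cidea had cKO replicates 3 and 4 as its highest libraries, as Plin2 did. Ucp1, below the filter, averaged 0.431 FPKM in the controls and 0.296 FPKM in cKO, and the groups overlapped (exact permutation p = 0.257). Which cells gave the Cidea RNA was not tested.

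Relatives of the members within their gene families were also measured. Of 12 other Fabp, resistin and carbonic anhydrase genes 9 were tested, 2 were higher (Fabp3 and Car4) and 3 lower (Retnla, Car2 and Retnlg, the last tested only through its control mean of 0.821 FPKM), and the median was −0.11. Fabp3, the carrier of heart and lactating gland, rose from 134, 105, 214 and 206 FPKM to 398, 618, 1019 and 963 FPKM (log2 fold change 2.15, SE 0.34, limma adjusted p = 0.0339). Fabp3 thus moved while Fabp4 did not pass the test. A direct test between the 2 genes was not made. Of 9 receptors of adiponectin and leptin and complement partners of factor D, all tested, 1 was higher: Cfb, factor B, the substrate of factor D (0.29, limma adjusted p = 0.212). C3, the most abundant of them, had 0.04.

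Markers of other cells moved with the groups too. Of the 11 secretory luminal genes 10 were higher at an unadjusted p and 5 after limma adjustment (Wap, Glycam1, Csn1s2a, Csn2 and Muc15), with a median of 0.94 and a summed level of 4431 to 6638 FPKM in the controls and 10646 to 19211 FPKM in cKO. Wap, the whey acidic protein gene, had a log2 fold change of 2.25 (limma adjusted p = 0.0340, 0.0539 with a replicate block) and Glycam1, a milk mucin, 2.24. Of 8 hormone-sensing luminal genes, 7 of them tested, Cited1 fell (−1.01, limma adjusted p = 0.0268, 0.0614 with a replicate block), the list's median was −0.12 and its most abundant gene, Areg, had −0.38, with summed levels of 36.3 to 53.4 FPKM in the controls and 27.9 to 35.2 FPKM in cKO. The 9 myoepithelial genes held 1 higher gene (Oxtr) and 2 lower ones (Trp63 and Krt14), with Acta2 at 0.21, a median of 0.02 and summed levels of 1983 to 2701 FPKM in the controls and 1808 to 2504 FPKM in cKO.

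Among stromal, vascular and immune markers no gene was higher at an unadjusted p, by limma or limma-voom without a block. Gpihbp1, an endothelial gene, had a log2 fold change of 0.23. Before adjustment it was called higher by limma with a replicate block and with replicates 1 and 2 against 3 and 4 as a block. Of 12 endothelial genes 3 were lower, with Vwf past adjustment (−0.46, limma adjusted p = 0.0268, 0.0614 with a replicate block), Cdh5 at −0.22, a median of −0.20 and a summed level of 117 to 127 FPKM in the controls and 91.7 to 127 FPKM in cKO. Of 9 macrophage genes 5 were lower at an unadjusted p and 0 after adjustment, by limma and by limma-voom alike, including C1qc (−0.50), C1qa (−0.48), Adgre1 (−0.41) and Lyz2 (−0.49), with a median of −0.41 and a summed level of 300.1 to 410 FPKM in the controls and 183 to 305 FPKM in cKO. None of 9 fibroblast genes passed the test at an unadjusted p under 0.05 (median −0.25, Col3a1 −0.43), and they summed to 465 to 965 FPKM in the controls and 317 to 749 FPKM in cKO. Of the 2 tested muscle genes, Acta1, which passed the filter only through cKO, was higher at an unadjusted p by limma and by limma-voom, and Mylpf had −0.07. No marker list of these 4 cell types held a gene with cKO replicates 2 and 4 highest, and 1 of the 9 myoepithelial genes, Oxtr, did. Over the members and all lists 12 genes passed limma adjustment, of which 1 (Cd36) still did with no filter on low values. The part of each of these lists in the members' levels was not tested.

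**Figure D4:**
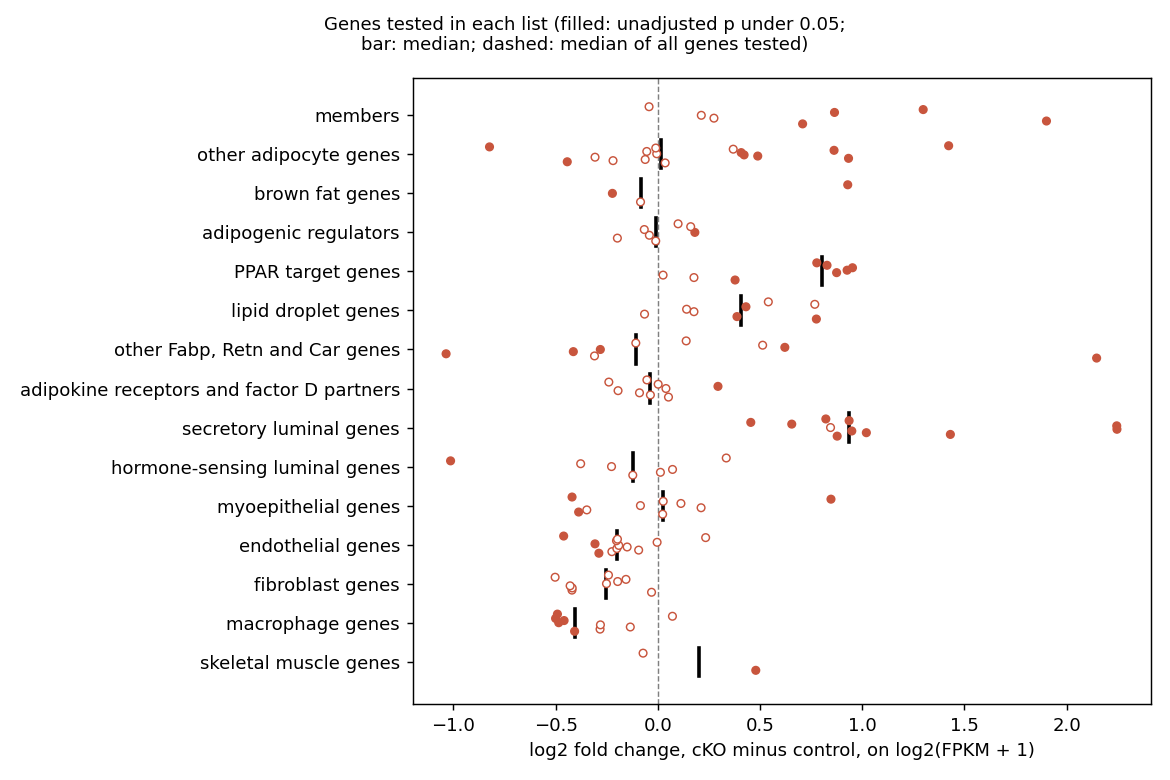
Log2 fold change (cKO minus control, on log2(FPKM + 1)) of every tested gene in the 10 members and 14 other lists, with 1 point per gene, filled where the unadjusted limma p is under 0.05, a black bar at the median of each of the 14 other lists and a dashed line at the median of all genes tested. The medians run from −0.41 for macrophage genes to 0.94 for secretory luminal genes, with 0.02 for other adipocyte genes. No median is drawn for the members, since the filter decided which of them are shown.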

How the data were processed

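RNA of mammary epithelial preparations from 4 control and 4 cKO mice was sequenced as NEBNext Ultra libraries. By the study's methods, reads were mapped with Hisat2 to GRCm38 and FPKM were calculated. The submitters' processing notes also name mm9, StringTie 1.3.3b and featureCounts 1.5.0-p3. Of the gene identifiers, 55394 were in GENCODE vM21, and 99.682% of these had the same start and end, so positions are given in GRCm38. The authors deposited FPKM values per gene, and 100% of values were whole multiples of 1 read (tolerance 0.01), which gave the reads per gene. The deposited FPKM already carried median-of-ratios scaling.

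Genes whose FPKM averaged 0.5 or more were tested on log2(FPKM + 1), pseudocount 1, with limma 3.58.1 (R 4.3.3) with a trend and Benjamini-Hochberg adjustment over 15143 genes, after the procedure had been tested on simulated data. Exact permutation tests and correlations used SciPy 1.17.1. Alternatives were a pseudocount of 0.1, no filter, a minimum of 1 FPKM, TPM, a second scaling, no trend, blocks of replicate numbers, limma-voom on recovered reads and leaving out each library. The filter was set over all 8 libraries and was not redone when libraries were left out. The members and lists were chosen with earlier results of these data known. Named were the members and, per list, genes with adjusted p under 0.05, otherwise up to 3 with the smallest unadjusted p under 0.05, and the most abundant gene, plus the 10 other genes with a mean of at least 1 FPKM and the closest profile. Some genes that this rule names are not reported here. P-values measure the spread between mice.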

Additional observations from a re-analysis of the deposited data

Results flagged for a closer look

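In 3 of 106 groups of 4 libraries examined over the named genes, 1 library stood apart from the other 3 by the range test of Dixon, where chance gives about 1 in 20, or 5.3 groups. Orm1 had 2.78 FPKM in cKO replicate 4 against 1.30 to 1.47 FPKM in the other cKO libraries. Dio2 had 0.801 FPKM in control replicate 3 against 1.09 to 1.13 FPKM in the other controls. Wap had 323 FPKM in cKO replicate 4 against 128 to 148 FPKM in the other cKO libraries. None of these 3 is a member.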

How the results depend on the processing

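At the 0.05 threshold 2480 genes were called before adjustment and 135 after it. The adjusted count was 442 with replicates 1 and 2 against 3 and 4 as a block, 10 with no filter, 252 with limma-voom, and 0 to 78 when 1 library was left out. Without cKO replicates 2 and 4 together, chosen after seeing the data, the counts were 1447 and 0. The members' unadjusted count of 4 became 2 with a minimum of 1 FPKM, 7 with limma-voom and no filter (added after seeing the data), and 3 to 6 when 1 library was left out. It was 5 with limma-voom and 5 with replicates 1 and 2 against 3 and 4 as a block. With no filter it was 6, and with limma-voom and a replicate block it was 6. Their adjusted count of 1 became 0 with no filter, with a minimum of 1 FPKM and without cKO replicates 2 and 4, and ran from 0 to 1 when 1 library was left out. For other adipocyte genes the adjusted count of 2 became 4 with replicates 1 and 2 against 3 and 4 as a block, 1 with no filter, 4 with limma-voom, 0 without cKO replicates 2 and 4, and 0 to 2 when 1 library was left out, and the unadjusted count of 8 ran from 7 to 9 when 1 library was left out and from 8 to 11 under the other settings. The correlation of the secretory genes with Adipoq ran from 0.61 to 0.87 when 1 library was left out and was 0.50 in the deviations from group means. The cause of these changes was not tested.

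Control and cKO replicates share numbers, but same-numbered libraries deviated together at 0.14, 0.11, 0.12 and 0.08, and control replicate 2 followed cKO replicate 1 more closely (0.18). Control and cKO libraries deviated together within replicates 1 and 2 and within replicates 3 and 4 (0.08 to 0.18) and apart across these sets (−0.21 to −0.07). Although controls were littermates, the sources used here do not say which numbered libraries share a litter. With a replicate block the adjusted count was 50 of all genes, 0 members (Cidec adjusted p = 0.0727) and 1 other adipocyte gene, and the members' unadjusted count fell from 4 to 3, since Adipoq lost its call. Of 12 adjusted calls among the members and lists, 6 were lost under the block (Cidec, Orm1, Abhd5, Wap, Cited1 and Vwf) and 11 with no filter. With limma-voom and the block the counts were 680, 3 and 5.

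Log2 fold changes that turned sign were those of Pparg, which ran from −0.11 to 0.036 when 1 library was left out, Cebpd (−0.15 to 0.079), C3 (−0.021 to 0.13, and −0.022 with TPM) and Mylpf (−0.15 to 0.043), none past the threshold in the report. Counting each named gene under each setting, 718 fold changes kept their direction and their side of the unadjusted threshold, 24 fell short of it, 17 newly passed it and 9 turned sign. Reads limit Lep, Plin1, Retn and Adipoq, which had as few as 0 to 2 reads in a library.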

Other observations

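Among 12918 other genes with a mean of at least 1 FPKM, those whose profile over the 8 libraries was closest to the mean of the 7 members that passed the filter were Gyg (r = 0.993), Mpp1 (0.979), Lasp1 (0.976), 1810019D21Rik (0.975), Pard6b (0.974), Vps53 (0.969), Mta3 (0.969), Usp43 (0.968), Ccl9 (0.965) and D7Ertd443e (0.962). These r are descriptions over 8 libraries that share their 2 groups, and the 7 include Adipoq and Cidec, which passed the filter only through cKO. Gyg, which encodes glycogenin, the primer of glycogen synthesis, had 6.01, 5.62, 6.49 and 6.30 FPKM in the controls and 7.07, 8.22, 7.01 and 8.73 FPKM in cKO. Ccl9, a chemokine gene, had 6.20, 5.31, 6.37 and 7.10 FPKM in the controls and 7.08, 11.3, 7.98 and 13.1 FPKM in cKO.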
